A study of Mus musculus with 2 samples.

Results

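The 9 genes described here encode neurotrophic factors, their receptors and a growth-cone protein: Ntf3, Bdnf, Gdnf and Artn (ligands), Ngfr, Ntrk2, Gfra1 and Gfra3 (receptors or co-receptors) and Gap43. They were taken by symbol from the 32285 genes counted in each library, and each symbol stood on 1 row. The data were single-cell RNA sequencing of mouse cornea and limbus, with 1 library from uninjured wild-type tissue and 1 from wild-type tissue injured with NaOH, an alkali burn. For the number of mice and eyes behind each library, the age of the mice and the time after the burn, the sources used here give nothing. The corneas were digested with liberase and trypsin, which frees epithelial and stromal cells but leaves the cell bodies of the corneal nerves, which lie outside the tissue, out of the sample.

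Neurotrophins are secreted dimers that keep sensory neurons alive and guide their endings: neurotrophin-3 (Ntf3) acts mainly through TrkC, brain-derived neurotrophic factor (Bdnf) through TrkB (Ntrk2), and the low-affinity receptor p75 (Ngfr) binds every neurotrophin. Ligands of the GDNF family act through the kinase Ret together with a co-receptor anchored in the membrane, GFRα1 (Gfra1) for GDNF and GFRα3 (Gfra3) for artemin (Artn). The cornea is among the most densely innervated surfaces of the body. Schwann cells of a damaged nerve leave the myelinating or Remak state, switch on p75, GDNF and other trophic factors, and line the path along which axons grow back. GAP-43 is a membrane protein of growing axons that Schwann cells and other motile cells also make.

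A total of 6743 cells of the uninjured library and 8368 of the NaOH library were analysed, with medians of 10152 and 10606 unique molecular identifiers (UMIs, counted molecules) per cell. Cells were grouped into classes by markers: 5154 and 5721 epithelial, 459 and 803 stromal, 53 and 95 Schwann and 58 and 86 mural cells in the uninjured and the NaOH library. The uninjured library held 14 macrophages or monocytes and 2 neutrophils, too few for a level, against 343 and 1020 in the NaOH library. A further 958 and 75 cells were shallow and stayed unnamed. The libraries shared 13 barcodes among the analysed cells. With 1 library per condition no difference has a replicate check, so no p-value is given, and every interval covers counting error only. A level is the gene's UMIs per 1000000 UMIs (CPM) summed over all cells of a class, with an exact 95% Poisson interval. A gene was called higher or lower in a class when it had at least 20 UMIs over both libraries, the ratio of its CPM was at least 2-fold and the 95% interval of the ratio left out 1.

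The start regions of 4 of these genes are shown because the ligands Ntf3, Gdnf and Artn and the receptor Ntrk2 carry the differences between cell classes described below. Each line gives the 150 bases before the start site that RefSeq annotates in GRCm38.p6, read 5′ to 3′ on the gene's strand, and capitals mark a match to one of the motifs searched.
Gdnf, chr15:7809898-7810047, plus strand: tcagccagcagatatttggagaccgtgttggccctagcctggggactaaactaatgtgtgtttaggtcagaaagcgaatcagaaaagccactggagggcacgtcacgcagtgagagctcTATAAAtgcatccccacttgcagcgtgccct
Artn, chr4:117929764-117929913, minus strand: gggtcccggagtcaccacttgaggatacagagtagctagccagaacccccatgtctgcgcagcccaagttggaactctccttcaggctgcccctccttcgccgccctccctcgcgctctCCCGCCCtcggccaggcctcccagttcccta
Ntf3, chr6:126166745-126166894, minus strand: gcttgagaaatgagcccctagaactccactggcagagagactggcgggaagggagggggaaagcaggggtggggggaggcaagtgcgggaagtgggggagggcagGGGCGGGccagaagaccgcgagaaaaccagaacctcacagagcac
Ntrk2, chr13:58806419-58806568, plus strand: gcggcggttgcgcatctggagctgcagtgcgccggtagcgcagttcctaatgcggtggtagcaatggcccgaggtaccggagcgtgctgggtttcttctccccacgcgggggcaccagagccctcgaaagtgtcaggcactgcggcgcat
Windows of 250 bases before the start, both strands, were searched for 3 motifs: the TATA box TATAAA, the GC box GGGCGGG and the AP-1 site TGANTCA. The TATA box was found in 12.4% of the 32851 RefSeq windows searched and in 1 of the 15 windows of the 7 member genes that had one, that of Gdnf, 31 bases before its start. The GC box was in 23.4% of all windows and in 6 of the 15, those of Artn, Bdnf, Ngfr and Ntf3. The AP-1 site was in 6.75% of all windows and in 1 of the 15, a window of Bdnf. None of the 3 was present in the stretch printed for Ntrk2. A match is a string of letters in a window, not an occupied site.

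Among the ligands, Ntf3 was an epithelial transcript in the uninjured cornea and its level fell after the burn. Ntf3 (ENSMUSG00000049107, chr6:126101412-126166910, minus strand) stood at 16.7 CPM in uninjured epithelial cells (interval 15.8 to 17.7, 1216 UMIs) and at 2.28 CPM in NaOH epithelial cells (interval 1.96 to 2.63, 184 UMIs). That is 7.33-fold lower, with an interval of 6.28 to 8.61, and the intervals of the libraries lay well apart. The epithelium held 98.0% of the Ntf3 UMIs of the uninjured library. In the NaOH library it held 75.7% (interval 69.8 to 81.0), and stromal cells held 21.4% (interval 16.4 to 27.1). Within stromal cells Ntf3 was at 2.32 CPM (6 UMIs) and 5.12 CPM (52 UMIs), a ratio of 2.21 whose interval, 0.948 to 6.28, includes 1.

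The lower Ntf3 level was seen in each epithelial cluster made up almost wholly of NaOH cells. The libraries filled different epithelial clusters: 5 clusters of at least 50 cells came wholly from the uninjured library and 6 almost wholly from the NaOH library. Ntf3 lay between 14.5 and 22.2 CPM in the uninjured clusters and between 0.935 and 2.82 CPM in those NaOH clusters where it was detected, so the ranges did not overlap. The share of all genes with such separate ranges was not counted. In the NaOH cluster of 69 cells led by Tspan1 and Ltf, Ntf3 had 0 UMIs, where 3 UMIs would have given 3.73 CPM. One cluster led by Apoe, Tppp3 and Wnt6 held cells of both libraries, 401 uninjured and 36 NaOH cells. There Ntf3 was at 17.1 CPM (82 UMIs) and 22.5 CPM (8 UMIs, interval 9.71 to 44.3), and the class-wide difference was not seen in it at this depth.

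Bdnf, which signals through TrkB, was lower in both of its main sources. Bdnf (ENSMUSG00000048482, chr2:109674700-109727007, plus strand) was at 4.18 CPM in uninjured epithelium (304 UMIs) and 0.458 CPM in NaOH epithelium (37 UMIs), 9.12-fold lower with an interval of 6.47 to 13.2. In the clusters of at least 50 cells it ranged from 2.51 to 6.39 CPM in the uninjured library and from 0 to 0.775 CPM in the NaOH library. The 2.51 CPM (12 UMIs) was that of the cluster led by Apoe, which held cells of both libraries. How many of all genes had such separate ranges was not counted. In stromal cells it was at 9.29 CPM (24 UMIs) and 3.05 CPM (31 UMIs), 3.04-fold lower with an interval of 1.71 to 5.36. Mural cells, the pericytes and smooth muscle of vessels, gave 55.7 CPM (7 UMIs) and 18.9 CPM (12 UMIs), too few UMIs for a call. The epithelial share of Bdnf UMIs was 87.6% in the uninjured library and 45.7% in the NaOH library, while the stromal share was 6.92% and 38.3%. For background, NaOH neutrophils had 1 Bdnf UMI among 940567 UMIs and macrophages 0 among 1908458. The part of background in the NaOH epithelial level was not tested. An antisense gene, Gm45346, overlaps Bdnf, and the sources used here do not say whether counting used the strand.

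Gdnf, the founding ligand of its family, was higher in stromal cells of the NaOH library and lower in its Schwann cells. Gdnf (ENSMUSG00000022144, chr15:7810846-7837575, plus strand) was at 11.6 CPM in uninjured stromal cells (interval 7.83 to 16.6, 30 UMIs) and at 36.9 CPM in NaOH stromal cells (interval 33.3 to 40.9, 375 UMIs), 3.18-fold higher with an interval of 2.19 to 4.78. Stromal cells held 17.2% of Gdnf UMIs in the uninjured library and 62.4% in the NaOH library. The epithelium held 67.8% and then 29.95% (interval 26.3 to 33.8), although its level was low in both, 1.62 and 2.23 CPM, and not called. NaOH neutrophils, which should lack Gdnf, had 3.19 CPM (3 UMIs) and macrophages 0 UMIs. Gdnf differed between epithelial clusters. It was at 3.14 CPM (51 UMIs) in the uninjured cluster led by Nppb and 0.229 CPM (6 UMIs) in that led by Gsta2. The NaOH clusters led by Hpgd and by Ppbp had 3.395 CPM (92 UMIs) and 0.637 CPM (14 UMIs). The part of background in the epithelial level was not tested. The level of Gdnf was highest in Schwann cells, at 264.5 CPM (18 UMIs) in the uninjured and 120.1 CPM (38 UMIs) in the NaOH library. The Schwann level was 2.20-fold lower after NaOH, with an interval of 1.18 to 3.95, the opposite direction to the stroma. The ratio fell under 2-fold with no doublet removal (log2 ratio -0.87), with 15 components (-0.89), with each cell weighted alike (-0.70) and with cells thinned to 1000 UMIs (-0.48).

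Artn was lower in epithelium and higher in stroma when all UMIs were counted, and neither ratio reached 2-fold in thinned cells. Artn (ENSMUSG00000028539, chr4:117926162-117929763, minus strand) was at 6.41 CPM in uninjured epithelium (466 UMIs) and 2.75 CPM in NaOH epithelium (222 UMIs), 2.33-fold lower with an interval of 1.98 to 2.75. In stromal cells it was at 2.71 CPM (7 UMIs) and 7.98 CPM (81 UMIs), 2.95-fold higher with an interval of 1.37 to 7.56. The stromal share of Artn UMIs was 1.45% in the uninjured and 26.1% in the NaOH library, and the epithelial share 96.3% and 71.4%. In Schwann cells, which carry its co-receptor, Artn had 0 UMIs and 4 UMIs. Thinned to 1000 UMIs per cell, the Artn counts were 17 and 14 UMIs in epithelium, a log2 ratio of -0.43, and 3 and 7 UMIs in stroma, a log2 ratio of 0.40. Both ratios kept their direction but fell under 2-fold and outside the intervals of the unthinned ones.

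**Figure D1:**
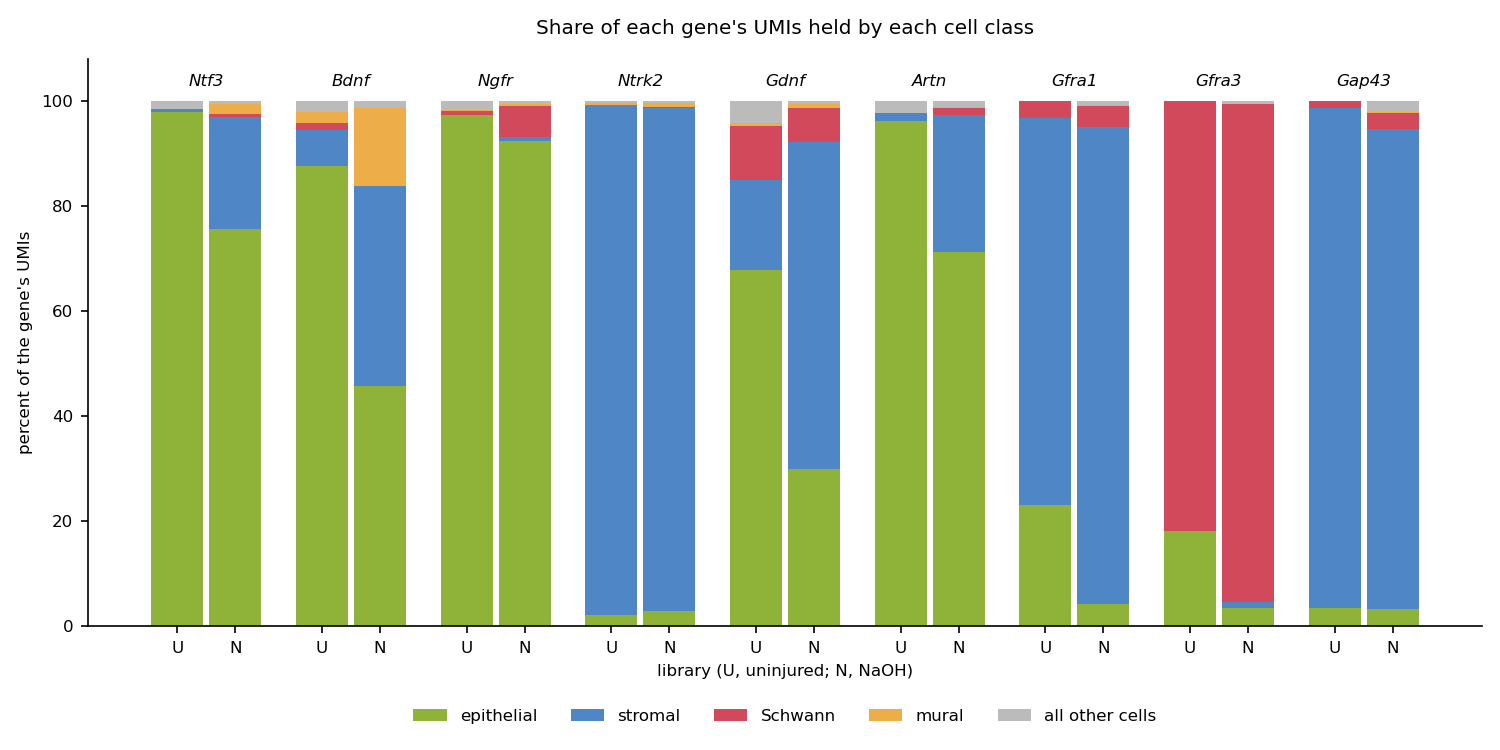
Stacked bars give, for each gene and library (U, uninjured; N, NaOH), the percent of the gene's UMIs held by epithelial, stromal, Schwann, mural and all other analysed cells. The stromal part of the bar is larger in the NaOH library for the ligands Ntf3, Bdnf, Gdnf and Artn (62.4% against 17.2% for Gdnf), and the Schwann part takes most of Gfra3 in both libraries.

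These shares describe the cells recovered in each library, and a change in the number of cells of a class moves them as much as a change in level does. Over whole libraries, every barcode included, Ntf3 went from 15.9 to 2.44 CPM, Bdnf from 4.38 to 0.827 CPM, Artn from 6.47 to 3.33 CPM and Gdnf from 2.14 to 6.44 CPM. The stromal share of the analysed cells was larger in the NaOH library, 803 of 8368 cells against 459 of 6743.

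Of the receptors, Ntrk2 was a stromal transcript and showed the largest fall of any member in the stroma. Ntrk2 (ENSMUSG00000055254, chr13:58806569-59133970, plus strand) stood at 1373.5 CPM in uninjured stromal cells (interval 1329 to 1420, 3550 UMIs) and at 200.7 CPM in NaOH stromal cells (interval 192 to 210, 2038 UMIs). It was 6.85-fold lower, with an interval of 6.48 to 7.23, and stromal cells were the source of nearly all of it in both libraries. Stromal cells held 97.2% and 95.8% of all Ntrk2 UMIs. At least 1 UMI was seen in 89.3% of the 459 uninjured and 78.7% of the 803 NaOH stromal cells, with median depths of 5715 and 12007 UMIs. With every cell thinned to 1000 UMIs these shares were 64.7% and 22.4%. In neutrophils, which should lack the gene, 0.196% of 1020 cells had a UMI at a median depth of 851 UMIs.

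Mural cells also carried Ntrk2, at 111 CPM (14 UMIs) and 28.3 CPM (18 UMIs), 3.93-fold lower with an interval of 1.81 to 8.36. Thinned to 1000 UMIs per cell the mural counts were 7 and 2 UMIs, too few for a call. The stromal marker list summed to 2393 and 5092 CPM in mural cells, with 2 and 1 of 10 markers at 0, against 81119 and 45340 CPM in the stroma itself, and NaOH neutrophils had 2.13 CPM of Ntrk2. The part of stromal RNA in the mural level was not tested. Schwann cells had 0 UMIs and 4 UMIs of Ntrk2. The UMIs of a gene cannot tell the kinase form of TrkB from its truncated form, and the antisense genes Gm47423 and 4930415C11Rik lie within Ntrk2.

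Ngfr marked the epithelium by number of molecules and Schwann cells by level. Ngfr (ENSMUSG00000000120, chr11:95568818-95587735, minus strand) was at 8.08 CPM (588 UMIs) and 6.44 CPM (520 UMIs) in epithelium, 1.26-fold lower and below the limit for a call. In Schwann cells it was at 73.5 CPM (5 UMIs, interval 23.9 to 171) and 104 CPM (33 UMIs, interval 71.8 to 147), with a ratio of 1.42 and an interval of 0.551 to 4.66. Stromal cells had 0 and 4 UMIs. Within the epithelium Ngfr was lowest in 4 clusters: 0.702 CPM (3 UMIs) in the uninjured cluster led by Psca, Lce3a and Krt78, genes of differentiating cells, and 1.24 CPM (1 UMI), 1.495 CPM and 1.96 CPM in the NaOH clusters led by Tspan1, by Serpinb3a and by Ppbp, Krt4 and Krt13. The uninjured clusters led by Apoe and by Fam169a and Aldh3a1 had 14.0 and 12.7 CPM.

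Gfra1, the co-receptor for GDNF, was carried by both stromal and Schwann cells. Gfra1 (ENSMUSG00000025089, chr19:58235604-58455909, minus strand) was at 61.5 CPM (159 UMIs) and 122.5 CPM (1244 UMIs) in stromal cells. The ratio was 1.99 with an interval of 1.69 to 2.36, just under the 2-fold limit. In Schwann cells it was at 103 CPM (7 UMIs) and 174 CPM (55 UMIs), a ratio of 1.69 with an interval of 0.768 to 4.40. Gdnf and Gfra1 were seen together in 8 of 459 uninjured and 165 of 803 NaOH stromal cells, counts that also follow the deeper sequencing of the NaOH stromal cells. An antisense gene, Gm16277, overlaps Gfra1.

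Gfra3, the co-receptor for artemin, was found nearly always in Schwann cells, which held 81.8% of its 22 UMIs in the uninjured and 94.9% of its 177 UMIs in the NaOH library. Gfra3 (ENSMUSG00000024366, chromosome 18, minus strand) was at 264.5 CPM (18 UMIs, interval 157 to 418) and 531 CPM (168 UMIs, interval 454 to 618) in Schwann cells. The ratio was 2.01 with an interval of 1.23 to 3.47, just over the 2-fold limit. With the strict cell filter (log2 ratio 0.84) or no doublet removal (0.87) it fell under that limit. Epithelial cells had 4 and 6 UMIs and stromal cells 0 and 2. Gfra3 was detected in 24.5% of the 53 uninjured and 65.3% of the 95 NaOH Schwann cells, whose median depths were 1162 and 2584 UMIs, and in 14.3% and 36.3% of them when thinned to 1000 UMIs. In neutrophils 0.0980% of 1020 cells had a UMI.

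Gap43 was higher in stromal and Schwann cells of the NaOH library. Gap43 (ENSMUSG00000047261, chr16:42248442-42340651, minus strand) was at 64.2 CPM in uninjured stromal cells (166 UMIs) and 331 CPM in NaOH stromal cells (3362 UMIs), 5.15-fold higher with an interval of 4.41 to 6.06. In Schwann cells there were 2 UMIs, both in 1 of 53 cells (29.4 CPM), against 117 UMIs in 36 of 95 cells (370 CPM). The ratio was 12.6, with a wide counting interval of 3.41 to 105. Epithelial cells had 6 and 118 UMIs, a ratio of 17.7 (interval 7.91 to 49.3), but their level after NaOH, 1.46 CPM, was 0.395% of that in Schwann cells. It also lay under the level in NaOH neutrophils (9.57 CPM, 9 UMIs) and macrophages (4.19 CPM, 8 UMIs), which should lack the gene. How much of the epithelial level was background was not tested. At least 1 Gap43 UMI was seen in 1.64% of NaOH epithelial cells, 0.784% of neutrophils and 2.33% of macrophages, with median depths of 11722, 851 and 4630 UMIs. Stromal cells were thus the main source of Gap43, with 95.4% and 91.5% of its UMIs. After NaOH 15 of 209 vascular endothelial cells held 56 UMIs of Gap43, against 0 UMIs in 42 uninjured cells.

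Thinned to 1000 UMIs per cell, Gap43 was detected in 8.20% of uninjured and 25.2% of NaOH stromal cells and in 2.38% and 22.0% of Schwann cells. In NaOH neutrophils 1.57% of 254 thinned cells had a Gap43 UMI. Markers of neurons were near 0 in the Schwann class: 1 UMI in uninjured cells, with 5 of 6 markers at 0, and 7 UMIs in NaOH cells, with 3 of 6 at 0. In stromal cells the neuron markers summed to 1.16 CPM and 56.0 CPM, nearly all of it Stmn2, a microtubule regulator of growth cones, which went from 0 to 554 UMIs. Stmn2, with the cycling gene Mki67, was among the top genes of the NaOH stromal sub-cluster led by Spp1, Tagln and Acta2 that is described below. The part of neuronal RNA in the stromal level of Gap43 was not tested.

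**Figure D2:**
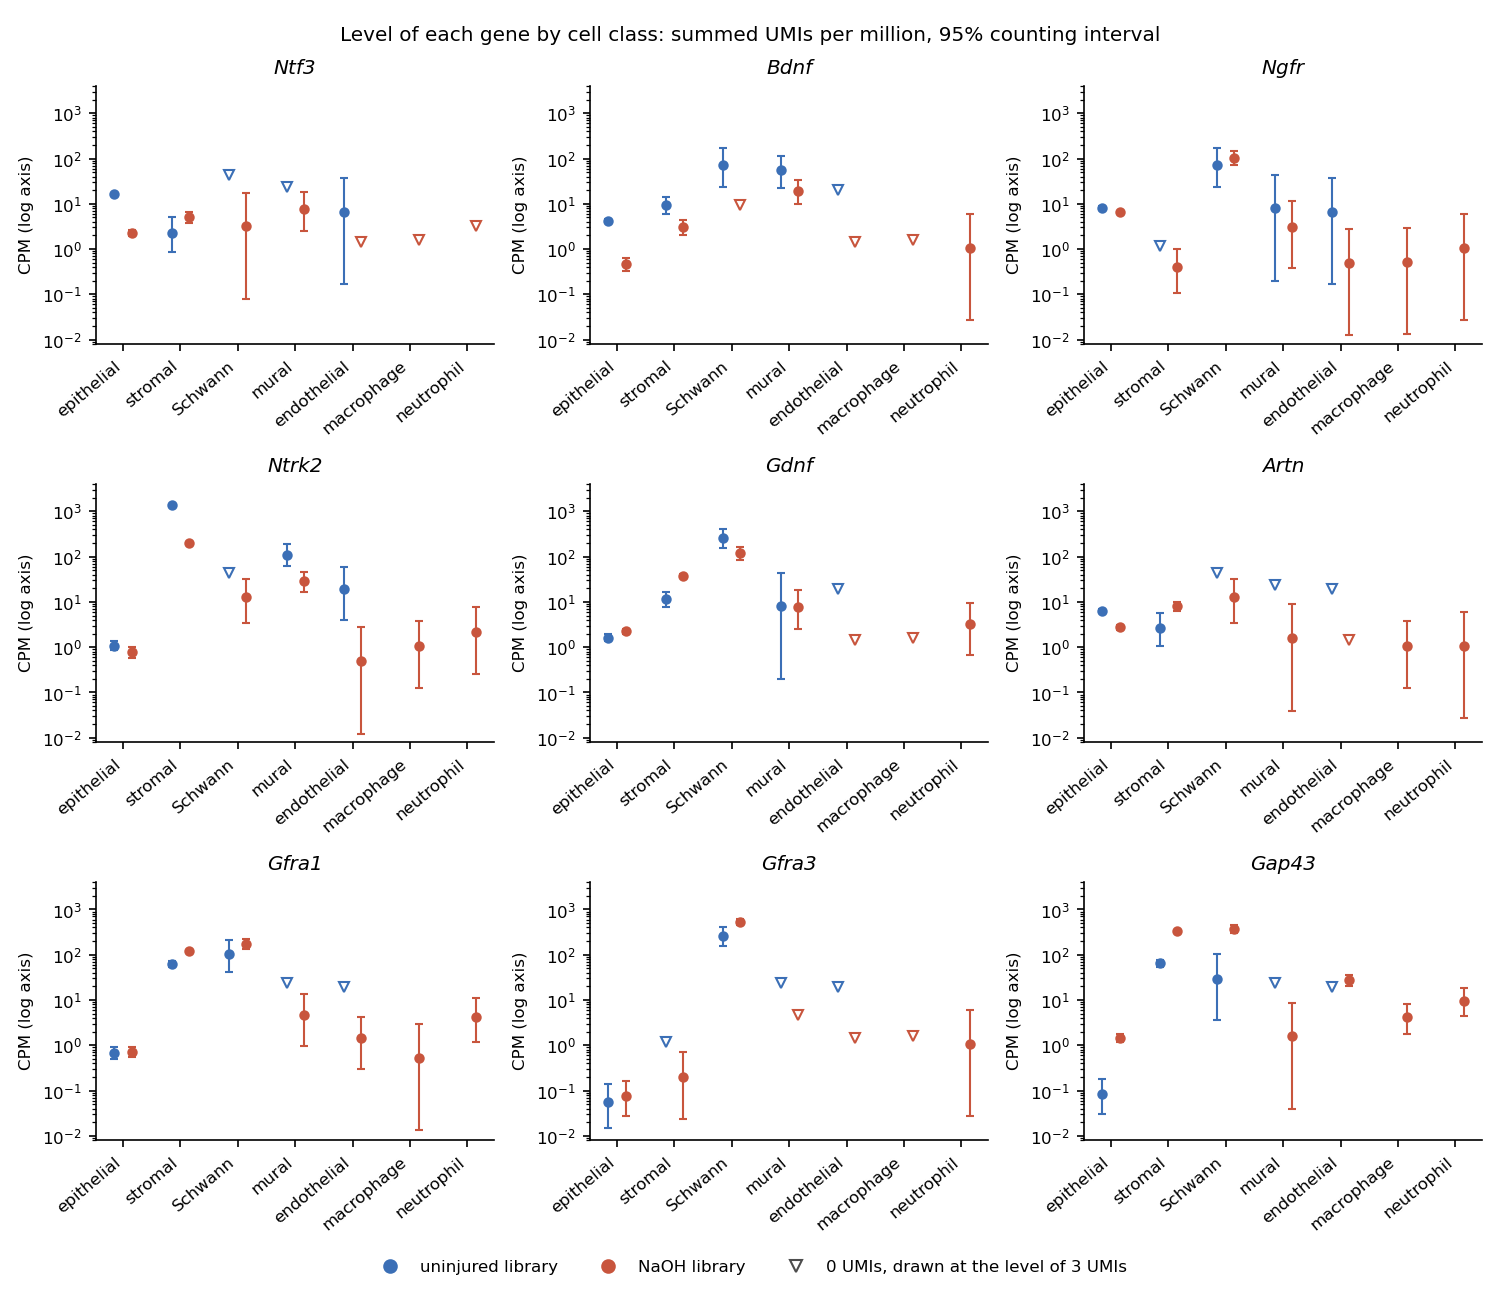
Each panel gives 1 gene: points are CPM summed over the cells of a class (log axis) with exact 95% Poisson intervals, blue for the uninjured and red for the NaOH library, for classes of at least 20 cells. Open triangles mark classes with 0 UMIs, drawn at the level that 3 UMIs would give. Ntrk2 stands highest in stromal cells, Gfra3, Gdnf and Ngfr in Schwann cells, and the red points of Ntf3 and Bdnf lie below the blue ones in epithelium.

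Counting the members called in each class against all genes of that class gave the following. In epithelial cells 8 of 9 members were measured at 20 UMIs or more. Of these 1 was higher (Gap43, under its level in NaOH neutrophils) and 3 were lower (Ntf3, Bdnf, Artn). Of the 14681 genes measured, 14.0% and 11.3% were called higher and lower. In stromal cells 7 were measured, 3 higher (Gdnf, Artn, Gap43) and 2 lower (Bdnf, Ntrk2), against 9.86% and 9.34% of 11975 genes. In Schwann cells 5 were measured, 2 higher (Gap43, Gfra3) and 1 lower (Gdnf), against 7.11% and 5.46% of 3222 genes. In mural cells Ntrk2 alone was measured and was lower, where 9.10% and 8.47% of 4580 genes were called higher and lower. The median log2 ratio of all genes was 0.03 in epithelial, 0.01 in stromal, 0.23 in Schwann and 0.24 in mural cells. Centred on the Schwann median, the ratio of Gfra3 was no longer called.

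**Figure D3:**
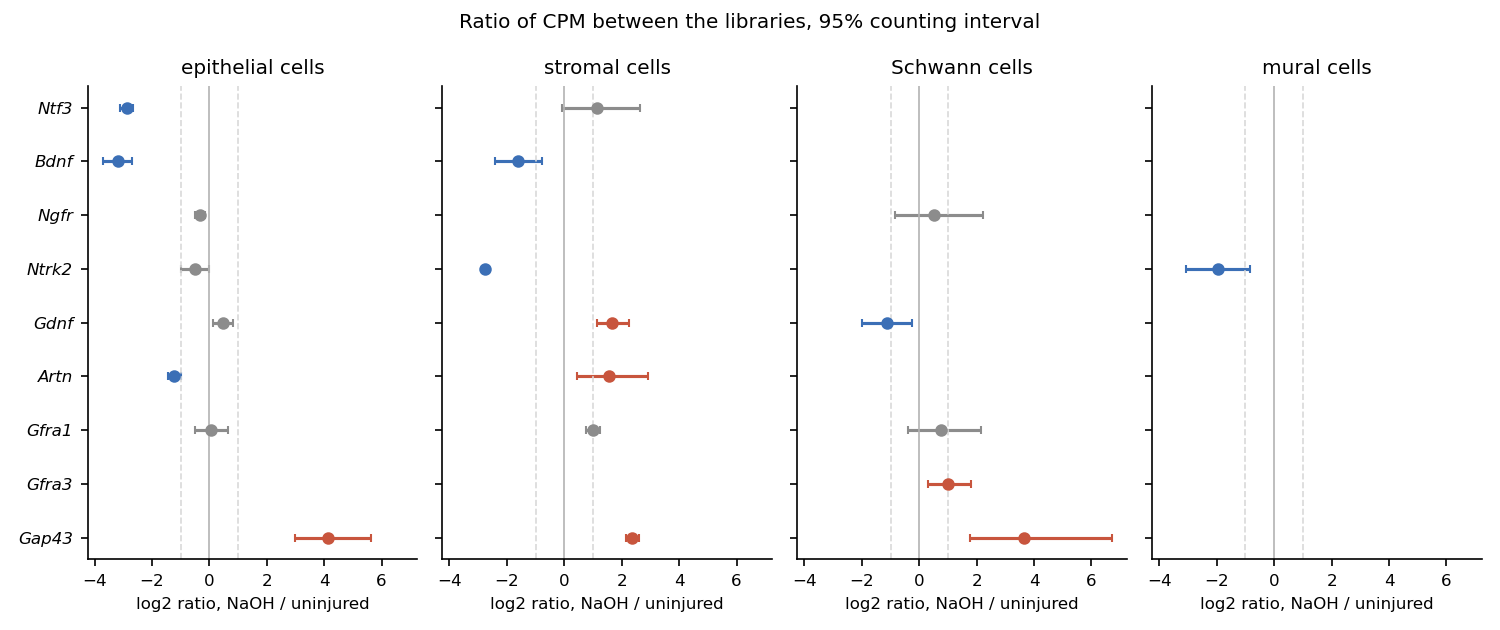
Points give the log2 ratio of CPM, NaOH over uninjured, with 95% counting intervals for members with at least 20 UMIs in a class. Red points were called higher, blue lower and grey neither, and dashed lines mark the 2-fold limit. Gdnf and Artn lie on the right in stromal cells, Artn on the left in epithelial cells (2.33-fold lower) and Gdnf on the left in Schwann cells (2.20-fold lower).

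The Schwann class was not uniform, and nearly all member UMIs lay outside its myelinating part. Re-clustering it gave a sub-cluster led by Ncmap, Drp2, Mbp and Prx, genes of the myelin sheath, with 21 uninjured and 10 NaOH cells. Of the 9 members, 8 had 0 UMIs in its uninjured cells, the exception being Gfra1 with 3 UMIs, and its NaOH cells held 1 UMI of Gfra1 and 1 of Gfra3. This sub-cluster was small, and 0 UMIs there allows up to 123 CPM in the uninjured and 104 CPM in the NaOH cells, taken at 3 UMIs. The remaining 32 uninjured and 85 NaOH Schwann cells carried the rest, but the libraries filled different sub-clusters. Of the uninjured cells 26 lay, with 1 NaOH cell, in a sub-cluster led by Lyz2, Slurp1 and Isg15, with the corneal epithelial keratin Krt12 among its top genes. The other 6 lay with 71 NaOH cells in a sub-cluster with Evi5, Txnip and Glcci1 among its top genes. A further 13 cells, all from the NaOH library, formed a sub-cluster led by the cycling genes Top2a, Ube2c and Mki67. There Gap43 was at 432 CPM and Gfra1 at 216 CPM, beside 399 and 176 CPM in the main NaOH sub-cluster of 71 cells.

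Leaving out the myelin sub-cluster, a choice made after seeing the data, changed which members were called. Gdnf was then at 412 CPM in uninjured cells (18 UMIs in 12 of 32 cells) and 132 CPM in NaOH cells (38 UMIs in 31 of 85 cells), 3.12-fold lower with an interval of 1.67 to 5.59. All 18 uninjured Gdnf UMIs were in the sub-cluster led by Lyz2 and Slurp1 (477 CPM). The 6 uninjured cells of the sub-cluster that held most NaOH cells had 0, where 3 UMIs would have given 499 CPM, against 154 CPM in its NaOH cells. Gap43 had 45.7 and 407 CPM, with a ratio of 8.90 and an interval of 2.41 to 74.3. Gfra3 had 412 and 581 CPM, with a ratio of 1.41 and an interval of 0.866 to 2.44, and was no longer called. Within the sub-cluster of 6 uninjured and 71 NaOH cells Gfra3 was at 1331 CPM (8 UMIs, interval 575 to 2623) and 708 CPM (133 UMIs, interval 593 to 839), the opposite order to the class, with overlapping intervals. Ngfr had 114 and 115 CPM, a ratio of 1.00 with an interval of 0.389 to 3.29. In these cells 5.01% and 6.27% of 2873 genes were called higher and lower. They include the cycling sub-cluster, which only the NaOH library held. With it left out as well, Gfra3 had a ratio of 1.71 (interval 1.04 to 2.97), still not called. Gdnf was then 2.70-fold lower (interval 1.41 to 5.04), and Gap43 had a ratio of 8.61 (interval 2.30 to 72.4).

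Gfra2, the co-receptor for neurturin, is not one of the 9 genes. It had 1 and 42 UMIs in the Schwann cells outside the myelin sub-cluster, a ratio of 6.39 with an interval of 1.09 to 258. Ret, the kinase that every GFRα co-receptor uses, had 0 UMIs in the Schwann cells of both libraries, where 3 UMIs would have given 44.1 and 9.48 CPM. Ncam1, an alternative signalling partner of GFRα1, was present at 132 CPM (9 UMIs) and 180 CPM (57 UMIs). All 5 Bdnf UMIs of uninjured Schwann cells came from 2 cells, and NaOH Schwann cells had 0.

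**Figure D4:**
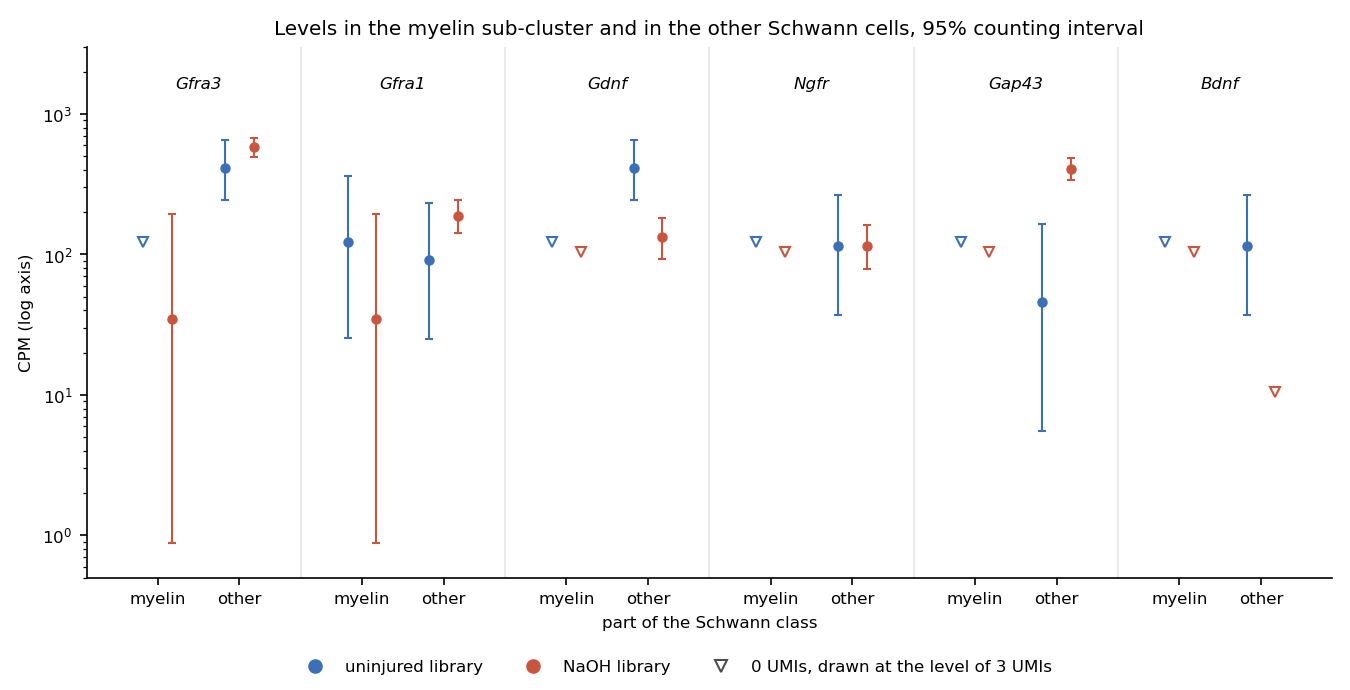
For 6 members, CPM (log axis) with exact 95% Poisson intervals in the sub-cluster of the Schwann class that leads with myelin genes and in the other Schwann cells, blue for the uninjured and red for the NaOH library. Open triangles mark 0 UMIs, drawn at the level of 3 UMIs. Gdnf in the other cells is 412 CPM in the uninjured and 132 CPM in the NaOH library, and Gap43 is 45.7 and 407 CPM.

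Counted per cell, 26 of the 53 uninjured Schwann cells held no UMI of any of the 9 genes and 12 of the 95 NaOH Schwann cells held none, with the depths given above. At least 3 members were seen in 2 uninjured cells and in 33 NaOH cells. RNA from other cells was present in this class: the epithelial marker list summed to 7038 CPM in uninjured and 1416 CPM in NaOH Schwann cells, against 42863 and 20085 CPM in the epithelium itself. Gdnf, Gfra3 and Ngfr were higher in Schwann cells than in epithelium in both libraries (264.5 against 1.62 CPM for Gdnf in the uninjured one). The part of RNA from other cells in the Schwann levels was not tested. Melanocyte markers gave 1 and 4 UMIs.

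The state of the Schwann cells around these members was described by 3 gene lists. Of 16 measured myelin genes, 10 were lower and 1 higher, against 5.46% and 7.11% of all genes, with a median log2 ratio of -1.42 against 0.23 for all genes, and the myelin sub-cluster was 21 of 53 cells in one library and 10 of 95 in the other. Mbp, which encodes myelin basic protein, was 4.72-fold lower over the class (interval 3.65 to 6.11) but 1.71-fold lower within the myelin sub-cluster (interval 1.28 to 2.30). Gldn, which helps to gather sodium channels at nodes, was 2.12-fold higher over the class.

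Of 14 measured genes of the repair programme, 3 were higher (Gap43, L1cam, Fgf5) and 1 was lower (Egr1), where 7.11% and 5.46% of all Schwann genes measured were called higher and lower, and the median log2 ratio was 0.14 against 0.23 for all genes. Jun, the transcription factor central to that programme, was at 1734 and 1960 CPM, a ratio of 1.13 (interval 0.927 to 1.39). Sox2 had 264.5 and 284.5 CPM, a ratio of 1.08 (interval 0.644 to 1.90). Shh and Olig1, which injured Schwann cells of larger nerves are known to switch on, had 0 UMIs in both libraries. Of 13 measured genes of non-myelinating Schwann cells, 2 were higher (L1cam, Matn2) and 3 lower (Scn7a, Apod, Cadm2), against the same 7.11% and 5.46%. Without the myelin sub-cluster those 3 stayed lower, Scn7a by 2.98-fold, Apod by 2.995-fold and Cadm2 by 4.90-fold. With the cycling sub-cluster also left out they were 2.43-fold, 2.45-fold and 3.63-fold lower.

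In the stroma the libraries again occupied separate sub-clusters, so member levels were set out by sub-cluster. The uninjured cells lay mainly in a sub-cluster led by Kera, Apoe and Angptl7 (274 cells; Kera encodes the keratocyte proteoglycan keratocan) and another led by Coch and Lypd2 (156 cells). The NaOH cells lay mainly in sub-clusters led by Cxcl14 and Col3a1 (337 cells), by Chil1 and Cemip (279 cells) and by Spp1, Tagln and Acta2, genes of contractile myofibroblasts (115 cells). Ntrk2 was at 1643 and 843.5 CPM in the uninjured pair and at 226, 269 and 73.8 CPM in the NaOH sub-clusters in that order. Gap43 was at 75.0 and 39.1 CPM in the uninjured pair and at 272, 454 and 291 CPM in the NaOH sub-clusters. For both genes the levels of the uninjured pair did not overlap those of the 3 NaOH sub-clusters. The share of all genes that separate in this way was not counted.

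Gdnf followed the same order, with 12.2 and 11.6 CPM against 37.5, 43.0 and 33.0 CPM, again with no count over all genes. Gfra1 did not: it had 67.8 and 53.6 CPM in the uninjured pair, 161 and 145 CPM in the first 2 NaOH sub-clusters, and 48.3 CPM (interval 39.7 to 58.3) in the one led by Spp1, Tagln and Acta2. The only sub-cluster with more than 20 cells of both libraries, led by Igfbp6 and Myoc (23 and 23 cells), had 6 and 22 UMIs of Ntrk2, 80.9 and 213 CPM, the opposite order to the class. Its Gap43 counts were 1 and 0 UMIs. A NaOH sub-cluster of 31 cells led by the epithelial genes Lgals7, Krt14 and Krt17 had 212 CPM of Gap43 and 138 CPM of Ntrk2. Without it, an alternative chosen after seeing the data, every stromal member ratio stayed within its interval.

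**Figure D5:**
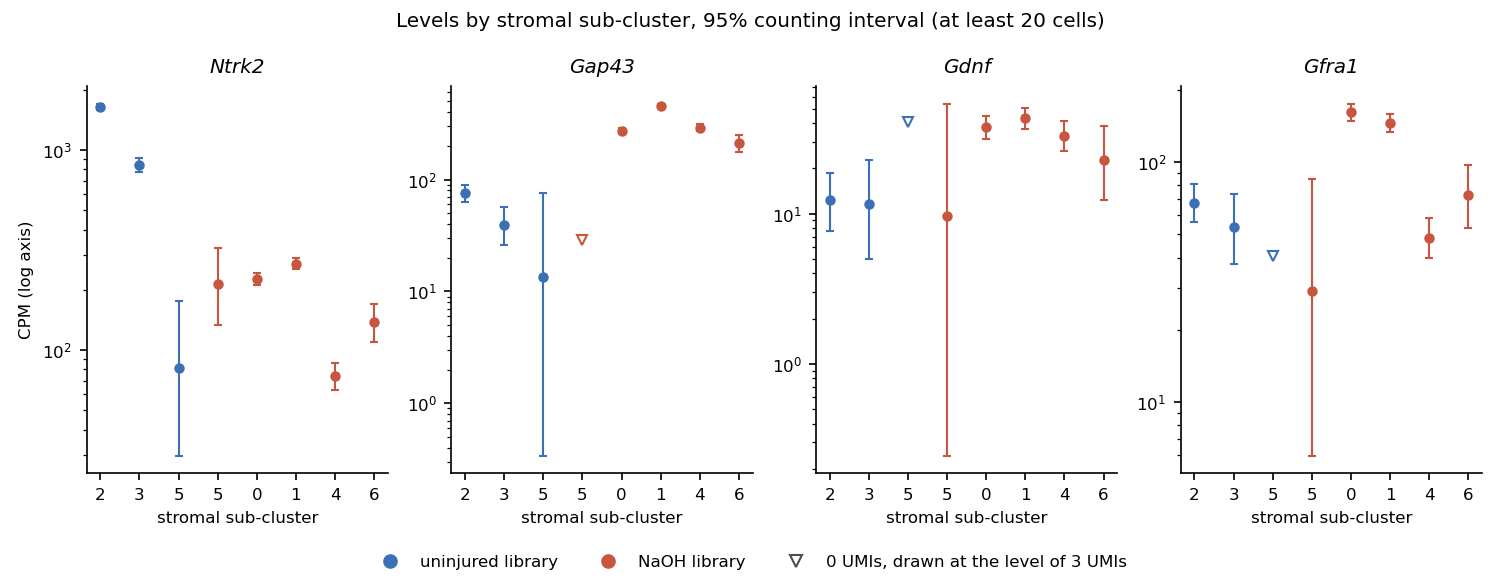
CPM (log axis) with exact 95% Poisson intervals for Ntrk2, Gap43, Gdnf and Gfra1 in stromal sub-clusters of at least 20 cells; uninjured points (blue) are sub-clusters 2, 3 and 5 and NaOH points (red) are 5, 0, 1, 4 and 6. Open triangles mark 0 UMIs, drawn at the level of 3 UMIs. Ntrk2 is highest in sub-cluster 2 (1643 CPM), and Gap43 is highest in sub-cluster 1 (454 CPM).

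The other genes of both pathways were taken from lists of their own. Ntf5, neurotrophin-4, was an epithelial transcript at 5.91 and 9.85 CPM and was not called.

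Among the 6 neurotrophin receptors, 5 were measured in epithelium, with 2 higher (Ntrk3, Nradd) and 1 lower (Sort1), against 14.0% and 11.3% of all epithelial genes. Ntrk3, which encodes the neurotrophin-3 receptor TrkC, had 19 and 618 UMIs there (0.261 and 7.66 CPM), a ratio of 29.3 with an interval of 18.6 to 49.03. Nradd, a p75-related protein, had 6.23 and 50.5 CPM, a ratio of 8.11 (interval 7.36 to 8.96). Sort1, the proneurotrophin co-receptor, was 2.83-fold lower in epithelium and 2.63-fold lower in stroma.

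Of the GDNF family ligands besides Gdnf and Artn, Nrtn (neurturin) was at 11.2 and 8.25 CPM in epithelium, not called, and 4.27-fold lower in stroma (25 and 23 UMIs, interval 2.33 to 7.88). Pspn (persephin) had 1 and 2 UMIs in the whole libraries. Ret was higher in epithelium (65 and 163 UMIs, 0.894 and 2.02 CPM). Among other trophic factors Igf1, insulin-like growth factor 1, was 9.01-fold higher in stroma (14.3 and 129 CPM, interval 6.50 to 12.9), and Ptn, pleiotrophin, 3.24-fold lower.

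Of 19 axon guidance genes, 17 were measured in stroma, with 2 higher (Sema4a, Slit2) and 5 lower (Sema3c, Sema3e, Sema3f, Ntn1, Ntn4), against 9.86% and 9.34% of all stromal genes, and a median log2 ratio of -0.57 against 0.01 for all genes. Sema3c, a secreted semaphorin, was 6.43-fold lower in stroma (455 and 70.8 CPM), and Slit2, a repellent, had 5 and 192 UMIs.

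Genes whose levels followed those of the members most closely were found over 12 class and library groups of at least 20 cells, among 11094 genes. These Pearson correlations are descriptions over groups that share libraries and depth. For a gene held mostly by 1 class, such as Gfra3 in Schwann cells (81.8% and 94.9% of its UMIs), r rests largely on that class. Gfra3 was most like Kcna1 (r = 0.992), a potassium channel of Schwann cells and axons, then Cadm2, Ucn2, Egfl8 and Cnp. Ntrk2 was most like Dkk2 (r = 0.970), a secreted Wnt regulator, then Nfatc4, Chsy3, Axin2 and Col6a1. Gap43 was most like Dclk1 (r = 0.957), Serpina3n, Tenm3, Gfra1 and Nfasc. Gdnf was most like Grb14 (r = 0.964), Scn7a and Fgf2, and Gfra1 was most like Fez1 (r = 0.963) and Apod. The closest gene to Bdnf was Syde2 (r = 0.956), to Artn Zfp316 (r = 0.922), to Ngfr Zmynd11 (r = 0.923) and to Ntf3 Mapkbp1 (r = 0.812).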

How the data were processed

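Each library was deposited by the authors as a 10x matrix of raw UMI counts per gene and barcode. The submitters' processing notes name Cell Ranger 7.0.1 and GRCm38; the sources used here give no chemistry, annotation, intron or strand setting. Barcodes with 300 genes or more, 500 UMIs or more and no more than 20% of UMIs from mitochondria were analysed. Scrublet's own threshold marked 0.503% and 0.0666% of cells, so the cells with the highest scores were removed as doublets at assumed rates of 5.99% and 7.52%. Ties at the limit were kept, so 407 of 7150 and 635 of 9003 cells were removed. Cells were clustered with scanpy 1.11.5 (2000 variable genes, 30 components, Leiden resolution 1) and classes named from markers. Counts were summed per class; ratios have exact conditional binomial intervals, with counts under 3 set to 3 for calls and medians. The rule was tested on simulated Poisson counts for stromal and Schwann cells. These held no variation between libraries or cells, so they cannot show how the rule fares with 1 library per condition. Named genes are the members and, per list, up to 4 genes with the largest called ratio (at least 10 CPM and 25% of the highest class) and the 2 most abundant in Schwann cells; other genes of the lists were named after their values were seen. Coordinates are from GENCODE M21, matched for 32235 of 32285 genes. Some listed genes are not reported here. The members and lists were chosen with earlier results of these data known. Alternatives covered cell filter, doublets, clustering, cell weighting, thinning, centring, fold and UMI limits.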

Additional observations from a re-analysis of the deposited data

Results flagged for a closer look

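Gdnf moved in opposite directions in 2 cell classes: its log2 ratio, NaOH over uninjured, was 1.67 in stromal and -1.14 in Schwann cells, 2.81 apart. Artn did so between stromal cells (1.56) and epithelial cells (-1.22), 2.78 apart, though in cells thinned to 1000 UMIs these were 0.40 and -0.43. The Schwann ratio of Gdnf kept its direction but fell under 2-fold in thinned cells. All 18 uninjured Schwann UMIs of Gdnf lay in a sub-cluster with 26 uninjured cells and 1 NaOH cell. With 1 library per condition the difference was not tested in either case.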

How the results depend on the processing

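Of 153 alternative values of the 21 member ratios, 146 stayed within the main 95% interval and none of those of the 13 called ratios changed sign, though 10 of 96 fell under 2-fold. With cells thinned to 1000 UMIs, which leaves few counts, the log2 ratio was -0.05 for Ngfr, -0.15 for Gdnf and -0.43 for Artn in epithelium, and -2.28 for Ntrk2, 0.40 for Artn and 1.91 for Gap43 in stroma. With each cell weighted alike Ntrk2 in stroma was -2.58. Thinning left 0 members higher in epithelium, 1 higher and 1 lower in stroma, and 0 lower in Schwann and in mural cells. Listed nerve genes called higher and lower under thinning were 19 and 9 in epithelium (31 and 16 in the main count) and 8 and 10 in stroma (18 and 18), with 5 lower in Schwann (15) and 2 lower in mural cells (6). In Schwann cells the members called higher went from 2 to 1 with the strict cell filter, with no doublet removal, without the myelin sub-cluster and with centring, and the single lower member went to 0 with no doublet removal and with 15 components. Listed genes there were 6 higher and 7 lower without the myelin sub-cluster, against 11 and 15, and 5 higher with centring. With no doublet removal 4 listed genes were higher in mural cells, against 2. No paired analysis was possible because each condition had 1 library. Thinning leaves smaller counts, gives each cell the same weight and drops cells under 1000 UMIs, and these were not told apart. The cause of these changes was not tested. The depth of the 53 uninjured Schwann cells, 68061 UMIs in all, limits every Schwann ratio.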

Other observations

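In the epithelium of the NaOH library several genes known from growth cones had higher levels, at low absolute values. Of the 14 genes of the neuron and growth cone list, 7 were measured in epithelium. Of these, 4 were higher (Tubb3, Nefm, Stmn2, Basp1) and 1 was lower (Tac1), against 14.0% and 11.3% of all epithelial genes. Stmn2 had 0 UMIs in uninjured and 722 UMIs in NaOH epithelial cells (8.95 CPM), Basp1 had 19 and 1118 UMIs (0.261 and 13.9 CPM), and Tubb3 had 7 and 76 UMIs. In Schwann cells Tubb3 had 1 and 75 UMIs, a ratio of 16.1 with a counting interval of 2.81 to 646, and Marcks was 3.40-fold higher (338 and 1148 CPM, interval 2.23 to 5.43), while Basp1 had 0 and 5 UMIs. The whole neuron marker list summed to 0.151 and 9.74 CPM in epithelial cells, with 4 of 6 and 1 of 6 markers at 0. No level in cells that should lack these genes was set beside the epithelial values, which are not read as epithelial expression. Tnc, an extracellular matrix protein of healing tissue that is also part of the Schwann repair list, was 9.46-fold higher in stroma (45.3 and 428 CPM, interval 7.87 to 11.5) and had 0 and 9 UMIs in Schwann cells. These genes were named after their values were seen.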
